A study of Mus musculus with 15 samples.

Results

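A stretch of 442 kb on Chr3 that holds Larp7, Neurog2 and Tifa was examined in mouse liver DNA by array-based comparative genomic hybridization (aCGH), in which tissue DNA and reference DNA carry different dyes and compete for the same probes. It was covered by 17 of the 40726 autosomal sites on the array, from 127212022 to 127653938 in the coordinates of the files, whose genome build is not given in the sources used here. The members were all sites between those positions, and the stretch had been selected on these same log2 ratios, so its levels are given as a description. Of the 17 sites, 16 carried 9 gene or transcript names and 1 was unnamed. In the order along the chromosome, sites 1 to 17 were BC153029 (site 1), Larp7 (2 and 3), BC079891 (4 to 7), Neurog2 (8), the unnamed site (9), AK173191 (10 and 11), Tifa (12), BC002199 (13 and 14), 5730508B09Rik (15 and 16) and AK036551 (17). The next 10 sites on either side served as flanks.

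The DNA came from 3 mice in which Cre under the Albumin promoter, active in hepatocytes, was combined with floxed Mad2 (Mad2l1, a spindle checkpoint gene) and floxed p53 (Trp53), on a strain labelled C57BL/6.129-Mad2flox,p53flox,AlbuminCre. Mouse 3151, a female of 16.4 months and genotype Mad2(f/f) p53(f/+), gave hepatocellular carcinomas (HCC) 1 and 2 and unaffected liver 1. Mouse 3760, a male of 13.8 months, gave HCC 3 and unaffected liver 2, and mouse 4033, a male of 13.9 months, gave HCCs 4 and 5 and unaffected liver 3, both with genotype Mad2(f/f) p53(f/f). The unaffected livers came from these same mice, so their labels give the floxed alleles and Cre of their tumours, and no tissue without them was among the 8. The reference was normal liver DNA of strain C57BL/6.129 and of the opposite sex, wild type in the study's methods, so that mouse 3151 was set against male and the other mice against female reference DNA. Mouse, sex, Trp53 genotype and reference DNA cannot be told apart for mouse 3151 against the others, and the strain of tissue and reference is labelled as mixed. Each tissue was hybridized in both dye orientations except HCC 3, which had the forward array only, giving 15 arrays. The 5 HCCs and 3 livers are separate tissues, but tissues of the same mouse share its genome, and p-values over the 8 tissues treat them as independent.

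Larp7 binds and stabilizes the 7SK RNA, which holds the elongation factor P-TEFb inactive. Neurog2 is a proneural transcription factor of the basic helix-loop-helix family. Tifa is an adaptor that couples the kinase Alpk1 to Traf6 and NF-kB signalling in innate immunity, and the mRNA AK173191 is annotated in the files as mKIAA1527, KIAA1527 being an older name of the human ALPK1 gene. BC079891 is annotated as the RIKEN gene that RefSeq now calls Zgrf1, which codes for a DNA helicase, and 5730508B09Rik is Fam241a in RefSeq. AK036551 is a cDNA clone of an unclassified product. In aCGH the ratio at a site reports relative hybridization, so a change in DNA copies and a sequence difference under the probe cannot be told apart from the ratio of a single site.

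The probes shown here are the pairs from Larp7 and AK173191, in which neighbouring sites of the same transcript read differently, and the last site of the region. They are printed as the files give them, with no part in capitals, and the files do not state their strand.
Larp7, site 2, chr3:127241724-127241783: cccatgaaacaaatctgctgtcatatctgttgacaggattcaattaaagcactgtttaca
Larp7, site 3, chr3:127254973-127255032: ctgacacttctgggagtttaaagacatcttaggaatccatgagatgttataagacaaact
AK173191, site 10, chr3:127464826-127464885: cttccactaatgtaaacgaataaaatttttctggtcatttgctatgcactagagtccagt
AK173191, site 11, chr3:127483080-127483127: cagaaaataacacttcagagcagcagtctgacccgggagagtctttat
AK036551, site 17, chr3:127653879-127653938: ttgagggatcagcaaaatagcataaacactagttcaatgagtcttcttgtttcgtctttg
Both Larp7 probes were 60 bases long with 22 G or C bases each. The site 10 probe of AK173191 had 21 G or C bases of 60, and the site 11 probe 22 of 48. Over the 17 sites the GC content ran from 23.3% (Tifa) to 45.8% (AK173191, site 11) with a median of 35%, against a median of 36.7% over the 2172 sites of Chr3. The sites with the widest spread, described next, were near the middle of that range.

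Averaged over its 17 sites, the region was low in the 3 tissues of mouse 3151, near the chromosome level in the 2 tissues of mouse 3760, and high in the 3 tissues of mouse 4033, with 2 sites carrying much of the size. Relative to the Chr3 median of the same tissue, the mean log2 ratio of the 17 sites was -0.55 in HCC 1, -0.56 in HCC 2 and -0.46 in unaffected liver 1. In mouse 3760, HCC 3 stood at 0.11 and its liver at -0.03. In mouse 4033 it was 0.30 in HCC 4, 0.51 in HCC 5 and 0.33 in unaffected liver 3. The tumours and the liver of a mouse thus stood on the same side of 0 in mice 3151 and 4033, and HCC and liver values overlapped. The 20 flanking sites averaged between -0.05 and 0.04 in every tissue. The step, the mean of the region minus that of its flanks, averaged -0.53 ± 0.07 (SD, 3 tissues) in mouse 3151 and 0.37 ± 0.09 (SD, 3 tissues) in mouse 4033.

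**Figure D1:**
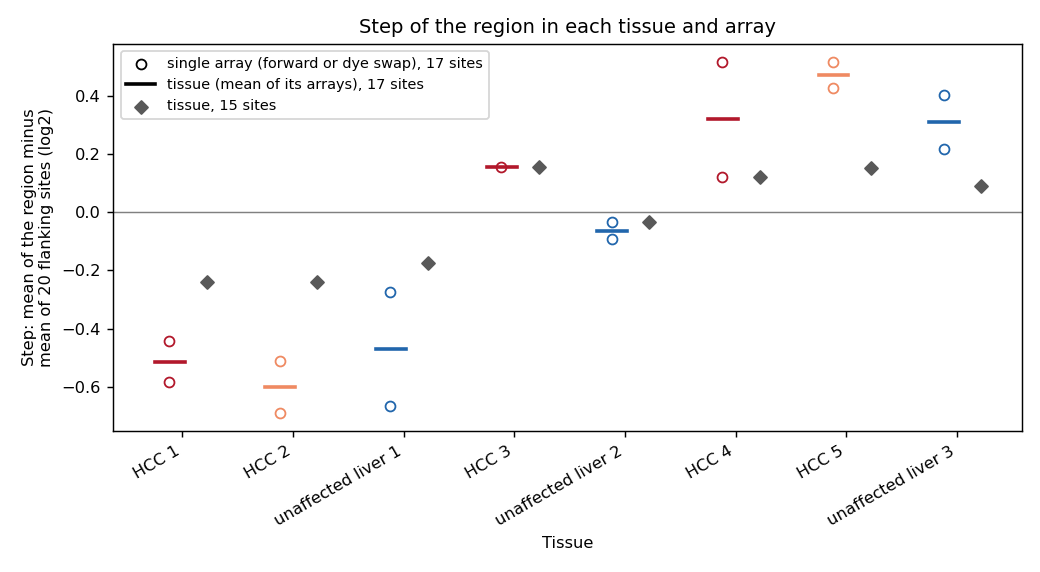
Step of the region (mean log2 ratio of the 17 sites minus that of 20 flanking sites, y axis) in each of 8 tissues (x axis). Open circles are single arrays, horizontal lines the mean of a tissue's arrays, and grey diamonds the tissue's step over 15 sites, without sites 2 and 10. All 6 arrays of mouse 3151 lie below 0 and all 6 of mouse 4033 above it, and the diamonds keep those sides at smaller sizes.

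The mean hid a wide spread between sites. The median of the 17 sites was -0.23, -0.38 and -0.20 in HCC 1, HCC 2 and unaffected liver 1 and only 0.07, 0.10 and 0.07 in HCC 4, HCC 5 and unaffected liver 3. The SD over the 17 sites was 0.82, 1.11 and 0.90 in HCC 1, HCC 2 and unaffected liver 1, and 0.70, 0.96 and 0.65 in HCC 4, HCC 5 and unaffected liver 3, against 0.19 in HCC 3 and 0.14 in unaffected liver 2. The SD over the 20 flanks lay between 0.06 and 0.29. Sites at least 0.3 below the Chr3 median numbered 8 of 17 in HCC 1 (8% of all autosomal sites), 9 in HCC 2 (6.9%) and 7 in unaffected liver 1 (6.82%). Sites at least 0.3 above it numbered 8 in HCC 4 (4.1%), 7 in HCC 5 (1.86%) and 5 in unaffected liver 3 (1.17%). In either direction, 2 sites passed 0.3 in HCC 3 (15.6%) and none in unaffected liver 2 (2.62%). Since the region was chosen by these ratios, nothing is read from these shares. The cut at 0.3 is the one the study used for whole chromosomes and, on ratios normalized by chromosome, for focal regions and genes.

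**Figure D2:**
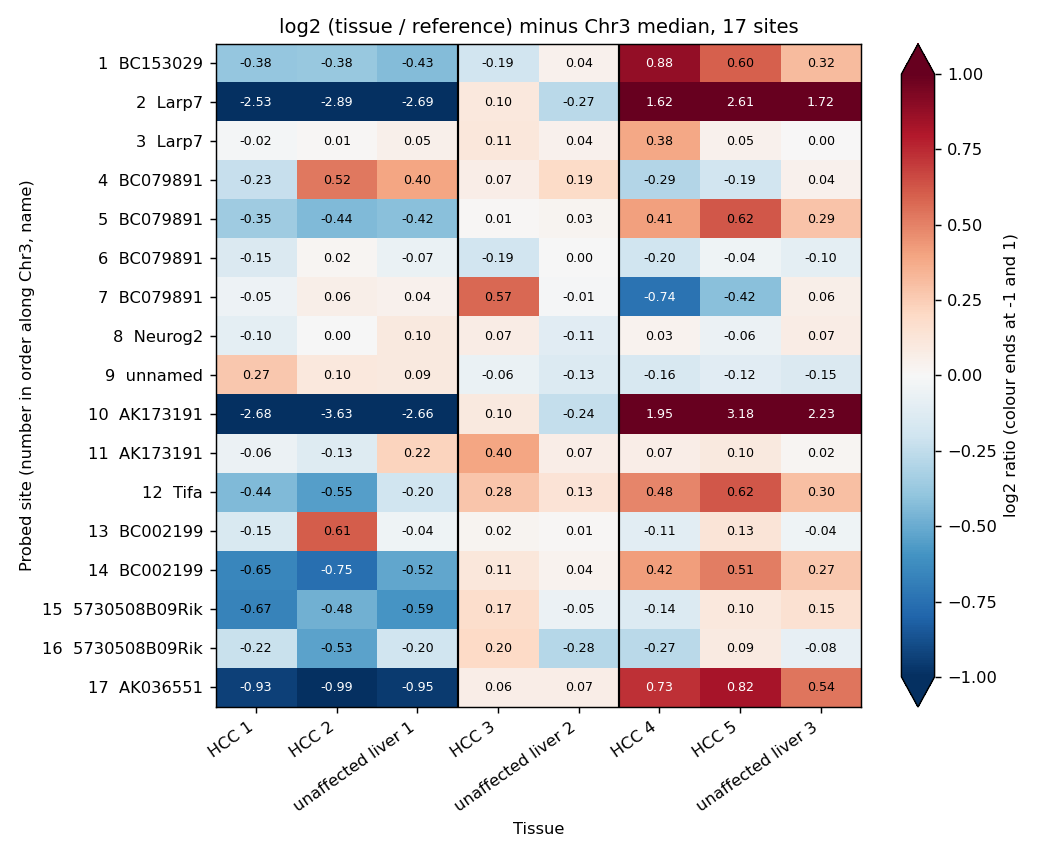
Log2 ratio of each of the 17 sites (rows, numbered along Chr3) in each of the 8 tissues (columns) minus the tissue's Chr3 median, printed in each cell and coloured from blue (low) to red (high). Black lines part the 3 mice, and sites 2 and 10 carry the largest values, from -3.63 in HCC 2 to 3.18 in HCC 5, while Neurog2 at site 8 stays between -0.11 and 0.10.

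Larp7 had a site of wide spread and a site near the chromosome level in most tissues. At site 2 the ratio relative to the Chr3 median was -2.53 in HCC 1, -2.89 in HCC 2 and -2.69 in unaffected liver 1, 0.10 in HCC 3 and -0.27 in unaffected liver 2, and 1.62 in HCC 4, 2.61 in HCC 5 and 1.72 in unaffected liver 3. The 3 mice did not overlap at this site, and within mouse 4033 the tissues ranged from 1.62 in HCC 4 to 2.61 in HCC 5. At site 3, 13.2 kb further on, the ratio ran from -0.02 to 0.11 in 7 of the tissues and was 0.38 in HCC 4. The sites of Larp7 therefore differed from each other by more than 2 log2 units in all 3 tissues of mouse 3151.

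AK173191 read in the same way. At site 10 the ratio was -2.68 in HCC 1, -3.63 in HCC 2 and -2.66 in unaffected liver 1, 0.10 in HCC 3 and -0.24 in unaffected liver 2, and 1.95 in HCC 4, 3.18 in HCC 5 and 2.23 in unaffected liver 3. This was the widest spread in the region. The values of mouse 3760 there come from signals not well above background in both channels. At site 11 the ratio ran from -0.13 in HCC 2 to 0.40 in HCC 3, with no order by mouse.

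The channels of sites 2 and 10 were read separately, each as log2 signal minus the median of that channel on the array. In mouse 3151 the tissue channel was dim and the reference channel bright. At Larp7 site 2 the tissue channel had a median of -3.63 over 6 arrays and the reference channel a median of -0.79. In mouse 4033 the order was reversed, with medians of -1.47 in the tissue and -3.15 in the reference. In mouse 3760 both channels were dim, at -2.61 and -2.42 over 3 arrays. At AK173191 site 10 the medians were -3.48 in the tissue and -0.42 in the reference for mouse 3151, -3.51 and -3.37 for mouse 3760, and -1.15 and -3.38 for mouse 4033. The dim side was thus the tissue of mouse 3151 and of mouse 3760 and the reference of mice 3760 and 4033.

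The dim signals were often not well above background, so their size is poorly fixed. In the tissue channel of mouse 3151 this held for 5 of 6 arrays at each of these sites, and in the reference channel of mouse 4033 for 1 of 6 arrays at Larp7 and 5 of 6 at AK173191. In mouse 3760 both channels at AK173191 were not well above background on all 3 arrays, and at Larp7 each channel on 1 of 3. No channel was saturated. Where the dim side was not well above background on both arrays of a tissue and the other side was, an approximate fold is given. It rests on the processed signals on the log2 scale, centred per channel. Each side was averaged over both arrays, and the difference of these means was turned into a fold. The dim side was set to the lowest signal well above background of that channel where that was higher. By this measure the reference exceeded the tissue at Larp7 site 2 by about 6.92-fold in HCC 1 and 6.29-fold in unaffected liver 1. At AK173191 site 10 it did so by about 8.02-fold in HCC 1 and 11.9-fold in HCC 2. The tissue exceeded the reference at AK173191 site 10 by about 7.14-fold in HCC 5 and 4.70-fold in unaffected liver 3. At AK173191 these folds equal the measured ratios of the dim signals. The arrays of a tissue differed widely, as at Larp7 site 2 in HCC 1, with -3.63 forward and -1.44 swap. The folds are therefore not lower limits for a single array. They are on signals centred per channel and are open to dye bias, although each rests on both orientations.

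**Figure D3:**
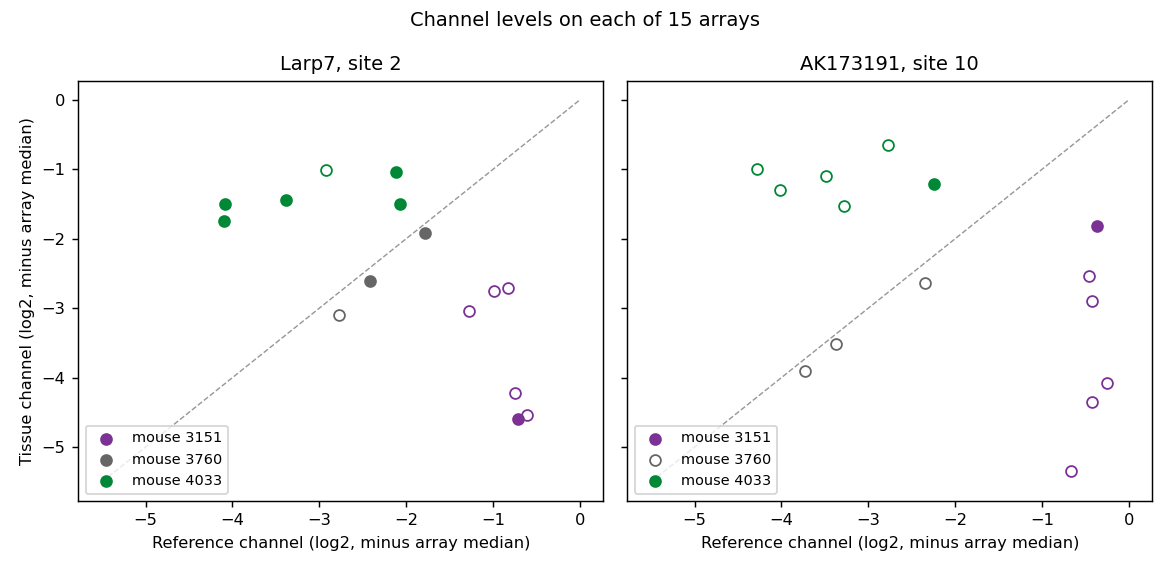
Tissue channel (y axis) against reference channel (x axis), both log2 signal minus the array median of that channel, for Larp7 site 2 (left) and AK173191 site 10 (right) on each of 15 arrays, coloured by mouse. Open points have at least 1 channel not well above background, and points above the dashed line of equality are brighter in the tissue. Mouse 3151 lies below the line, mouse 4033 above it and mouse 3760 along it at low signal in both channels.

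The other sites were smaller, and part of them followed the same order of mice. At AK036551, site 17, the ratio was -0.93 in HCC 1, -0.99 in HCC 2 and -0.95 in unaffected liver 1, 0.06 in HCC 3 and 0.07 in unaffected liver 2, and 0.73 in HCC 4, 0.82 in HCC 5 and 0.54 in unaffected liver 3. Its channels passed the background test on all 15 arrays. The site belongs to the region selected on these ratios, and what part dim signals had in the order of mice was not tested. At Tifa, site 12, the ratio was -0.44 in HCC 1, -0.55 in HCC 2 and -0.20 in unaffected liver 1, 0.28 in HCC 3 and 0.13 in unaffected liver 2, and 0.48 in HCC 4, 0.62 in HCC 5 and 0.30 in unaffected liver 3. Tifa is the AT-richest probe of the region. At Neurog2, site 8, the ratio was -0.10 in HCC 1, 0.00 in HCC 2 and 0.10 in unaffected liver 1, 0.07 in HCC 3 and -0.11 in unaffected liver 2, and 0.03 in HCC 4, -0.06 in HCC 5 and 0.07 in unaffected liver 3. The 3 mice overlapped at Neurog2.

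In all, 8 of the 17 sites had every tissue of mouse 3151 below every tissue of mouse 4033, as did 5.91% of all autosomal sites, and with a region chosen on these values nothing is read from that count. They were sites 1, 2, 5, 10, 12, 14, 15 and 17. At 7 of them the signs were opposite in the 2 mice, and at 5730508B09Rik site 15 mouse 3151 was low (-0.67, -0.48 and -0.59 in HCC 1, HCC 2 and unaffected liver 1) while mouse 4033 was near 0 (-0.14, 0.10 and 0.15 in HCC 4, HCC 5 and unaffected liver 3). At BC002199 site 14 the ratio ran from -0.75 to -0.52 in mouse 3151 and from 0.27 to 0.51 in mouse 4033, but at its neighbour site 13 from -0.15 to 0.61 and from -0.11 to 0.13. BC079891 was likewise mixed. At its site 5 the ratio ran from -0.44 to -0.35 in mouse 3151 and from 0.29 to 0.62 in mouse 4033, and at its site 6, 23.9 kb away, from -0.15 to 0.02 and from -0.20 to -0.04. Shifted and unshifted sites thus alternated along the region. BC153029 at site 1 ran from -0.43 to -0.38 in mouse 3151 and from 0.32 to 0.88 in mouse 4033.

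The edges of the region were as follows. The last flank before it, AK044634 at 127193301, ran from -0.06 to 0.11 over the 8 tissues, whereas the flank before that, also AK044634, was at -0.47, -0.57 and -0.56 in HCC 1, HCC 2 and unaffected liver 1 and at 0.46, 0.13 and 0.08 in HCC 4, HCC 5 and unaffected liver 3. The widest difference between these mice among the flanks was further out, at an unnamed site at 126273651, with -0.67, -0.27 and -0.50 in mouse 3151 and 0.62, 0.58 and 0.20 in mouse 4033, in the same order of tissues. In all, 3 of the 20 flanks had every tissue of mouse 3151 below every tissue of mouse 4033, as did 5.91% of all autosomal sites. Among these flanks the site at 129046439 barely differed, with means of -0.11 in mouse 3151 and -0.04 in mouse 4033. After the last member the array holds no site for 1153 kb, and the first site beyond that gap was unnamed and at 0.16, 0.02 and -0.22 in mouse 3151 and at -0.01, -0.03 and 0.00 in mouse 4033. The flanks also held Camk2d, Ank2, Enpep and Elovl6 at 2 sites each and AK043663 at 1 site, among others. Where shifted sites begin and end is therefore not set by these arrays.

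**Figure D4:**
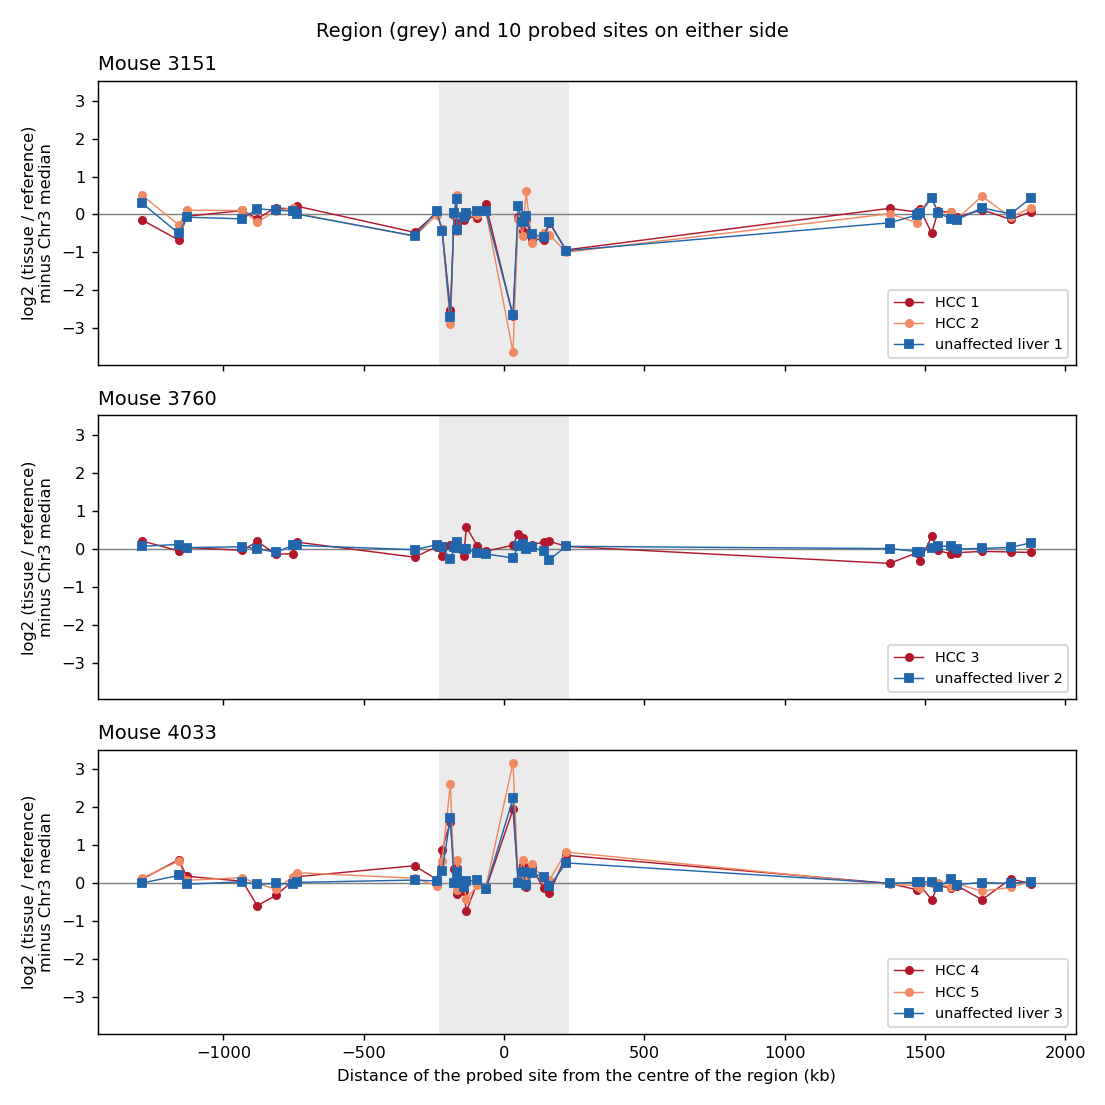
Log2 ratio minus the tissue's Chr3 median (y axis) of the 17 sites of the region (grey) and of 10 flanking sites on either side, by distance from the centre of the region in kb (x axis), with a panel for each mouse. Circles are HCCs and squares unaffected livers, and lines only join neighbouring sites. In mice 3151 and 4033 the tumours and the liver follow each other at the widest sites, with opposite signs between the mice there, and mouse 3760 stays near 0.

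Dividing Chr3 into stretches of equal level by least squares, with at least 5 sites a stretch, set all or part of the region apart in 5 tissues. In HCC 1 and in unaffected liver 1 a segment of exactly the 17 sites was found, at -0.55 and -0.46. The region was chosen on these ratios, so nothing is read from that match, and it depended on the smallest size allowed. With at least 3 sites a stretch, HCC 1 split into sites 1 to 3 at -0.98, sites 4 to 9 at -0.10 and sites 10 to 17 at -0.72. Unaffected liver 1 then split into sites 1 and 2 with flanks at -0.90, sites 3 to 9 at 0.03 and sites 10 to 17 at -0.62. In HCC 2 the region was split into sites 1 to 3 with 2 flanks at -0.77, sites 4 to 9 at 0.04 and sites 10 to 17 at -0.81. In HCC 5 and unaffected liver 3 sites 3 to 9 again formed a segment near 0, at -0.02 and 0.03, between segments at 0.71 and 0.91 in HCC 5 and at 0.44 and 0.56 in unaffected liver 3. The first of these high segments held 5 sites, of which only 2, sites 1 and 2, were members, and the second held sites 10 to 14. Sites 2 and 10 carried much of them, at 2.61 and 3.18 in HCC 5 and at 1.72 and 2.23 in unaffected liver 3. The other sites of the high segments ran from -0.06 to 0.62 in HCC 5 and from -0.04 to 0.32 in unaffected liver 3. Sites 15 to 17 fell in segments of 58 sites at 0.06 in HCC 5 and of 161 sites at 0.02 in unaffected liver 3. In HCC 4 a segment of 44 sites at 0.18 held the region, and in both tissues of mouse 3760 it lay in a segment of 1076 sites. The middle segment, of 113 kb, holds the second Larp7 site, all 4 BC079891 sites, Neurog2 and the unnamed site. Its mean over the 7 sites ran from -0.09 to 0.08 over the 8 tissues, whereas sites 10 to 17 averaged -0.72, -0.81 and -0.62 in HCC 1, HCC 2 and unaffected liver 1 and 0.39, 0.69 and 0.42 in HCC 4, HCC 5 and unaffected liver 3. The medians of sites 10 to 17, on which site 10 weighs less, were -0.55, -0.54 and -0.36 and 0.24, 0.32 and 0.21 in the same tissues. Without sites 2 and 10, which were left out after their values were seen, the step of the region was -0.24, -0.24 and -0.18 in the tissues of mouse 3151 and 0.12, 0.15 and 0.09 in those of mouse 4033, in the same order of tissues.

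Dye orientation changed the size of the ratios at sites 2 and 10 but not their sign, whereas over all 17 sites the forward and swap arrays had the same sign at only 7 to 12 sites a tissue. At Larp7 site 2 the forward and swap arrays gave -3.63 and -1.44 in HCC 1 and 2.37 and 1.07 in unaffected liver 3, and the sign agreed in all 7 tissues that have both orientations. At AK173191 site 10 they gave -4.74 and -2.52 in HCC 2 and 2.73 and 3.62 in HCC 5, again with the same sign in all 7. At AK036551 the orientations were within 0.30 of each other in the same 7 tissues. Among the other sites ordered by mouse, Tifa was at -0.49 and 0.07 in unaffected liver 1, and 5730508B09Rik site 15 at -0.53 and 0.25 in HCC 4. At Neurog2 they had opposite signs in all 7 tissues, with gaps of up to 0.44, so its ratios were no larger than the difference between orientations. The step itself had the same sign on both arrays of each tissue that has both orientations. Without sites 2 and 10 this failed in HCC 4, at -0.009 forward and 0.25 swap, and held in the other tissues.

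The design asks whether the region differed between HCC and unaffected liver, and no difference beyond the spread between tissues was measured. The region was selected on these same ratios, and that spread is largely the one between mice. Tests over all tissues that leave out mouse therefore cannot exclude a difference smaller than that spread. The step averaged -0.03 ± 0.49 (SD, n = 5) over the HCCs and -0.07 ± 0.39 (SD, n = 3) over the livers, which is 0.04 higher in HCC, with p = 0.911 by a two-sided exact permutation test over 56 splits of the tissues. Relative to the Chr3 median the difference was 0.01 (exact permutation p = 0.929). Against the reference, with changes of all of Chr3 included, the region averaged -0.28 ± 0.40 (SD, n = 5) over the HCCs and -0.04 ± 0.40 (SD, n = 3) over the livers, and the HCC mean minus the liver mean came to -0.24 (exact permutation p = 0.429). The Chr3 median itself lay between -0.36 and -0.25 in HCCs 1, 3, 4 and 5, at 0.08 in HCC 2, and between 0.01 and 0.02 in the livers. The means of mice 3151 and 4033 lay further apart than any of these differences. With mouse as a replicate block the step differed by 0.07 within mice (exact permutation p = 0.556). That design has 18 splits, and its smallest possible p is 0.0556. It could not reach 0.05, so nothing is concluded from its p.

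Set against the liver of the same mouse, the step of HCC 1 differed by -0.04, that of HCC 2 by -0.13, that of HCC 3 by 0.22, that of HCC 4 by 0.01 and that of HCC 5 by 0.16. Site by site, the SD of the difference between a tumour and its liver was 0.19, 0.33, 0.23, 0.31 and 0.35 for HCCs 1 to 5, against 0.29, 0.18, 0.17, 0.27 and 0.16 over the flanks. Higher in the tumour were 5, 7, 12, 7 and 13 of the 17 sites in the same order. At sites 2, 10 and 17 the livers of mice 3151 and 4033 were shifted to the same side as their tumours, though not always by the same size. At site 17 unaffected liver 3 was at 0.54, against 0.73 in HCC 4 and 0.82 in HCC 5. The largest difference of a tumour from its own liver at a single site ran from 0.58 in HCC 3 to 0.97 in HCC 2.

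For the genes that name the region no difference beyond the spread between tissues was measured either, again on the ratios used for selection. The step of the Larp7 sites averaged -0.05 ± 1.27 (SD, n = 5) over the HCCs and -0.21 ± 1.08 (SD, n = 3) over the livers (exact permutation p = 0.750), that of Neurog2 -0.01 ± 0.09 and 0.00 ± 0.13 (p = 0.982, exact) and that of Tifa 0.08 ± 0.55 and 0.06 ± 0.25 (p = 0.911, exact). Across all 40726 autosomal sites, limma with Benjamini-Hochberg adjustment called 0 sites, or 0%, against the reference and 0 relative to the chromosome median. At an unadjusted p under 0.05 it gave 3012 sites (7.4%) against the reference and 625 (1.53%) relative to the chromosome median, and 0 of the 17 members in either. The smallest adjusted p among the members was 0.698, at BC079891 site 4, against the reference. The standard error of the HCC difference relative to the chromosome median was 1.34 at Larp7 site 2, 1.57 at AK173191 site 10 and 0.48 at AK036551, and 0.20, 0.30 and 0.09 with mouse as a block, in which no site was called either.

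Scan day and slide were compared with the levels. The tissues of mouse 3151 were all scanned on day 2, those of mouse 3760 and HCC 5 and unaffected liver 3 on day 1, and HCC 4 on day 2. HCC 4 and unaffected liver 1 shared a slide and had steps of 0.32 and -0.47. Within day 1 the step of HCC exceeded that of liver by 0.19, and within day 2 by 0.21, each from tissues of 2 mice, with exact permutation p of 0.667 over 6 splits and 1 over 4 splits.

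Array quality was read from the file headers and spot flags. Median signal over background ran from 3.72 to 7.95 over channels and arrays, and 0.191% to 2.31% of spots were not well above background. Outlier spots, which were left out, made up 0.00232% to 0.0256% of spots on the arrays of scan day 1 and 0.165% to 0.40% on those of day 2, and the headers name a different extraction protocol for each day. The X chromosome was above the autosomes on all 6 arrays of the female and below on all 9 of the males, in the direction of the labelled sexes and references. At the single Mad2l1 site the ratio relative to its chromosome was -1.53, -1.04 and 0.04 in HCC 1, HCC 2 and unaffected liver 1, 0.12 and 0.33 in HCC 3 and unaffected liver 2, and 0.20, 0.91 and 0.67 in HCC 4, HCC 5 and unaffected liver 3. At the single Trp53 site it was -0.75, -0.92 and -0.07, then -0.20 and -0.87, and then -1.82, -2.13 and -0.72 in the same order. The Mad2l1 site was thus not low in 6 of the 8 tissues. Whether these sites lie in the floxed exons was not tested, so they do not check the deletion.

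The partners of these genes elsewhere in the genome were read on the same scale. A name was counted where the mean of its sites was at least 0.3 from the chromosome median in any tissue, which held for 34.5% of all 19948 autosomal names and for 7 of the 9 names of the region. Of the genes around 7SK and P-TEFb, 4 of 10 measured passed, and of the proneural factors 4 of 10. Of the Alpk1, Tifa and Traf6 pathway 4 of 10 passed, and of the chromosomal neighbours 4 of 11. Larp7 or Tifa was among those that passed in 3 lists. Alpk1 had no site under that name and was left out of the measured genes. The sites of AK173191, annotated as mKIAA1527, were not counted for it. The median over each list of a gene's mean absolute ratio lay between 0.09 and 0.10, and was 0.10 over all names. Outside the region, Ccnt1, a cyclin of P-TEFb, reached 0.55 in HCC 2, Neurod1, a proneural factor, -0.41 in unaffected liver 1, and Map3k7, a kinase downstream of Traf6, 0.41 in HCC 1. Each was within 0.3 of its chromosome median in most other tissues. Among the neighbours Ndst4, a heparan sulfate modifying enzyme, was at -0.36 in HCC 1 and 0.42 in HCC 4. Ndst4 did not keep the order of mice, at 0.25 in HCC 2, -0.02 in unaffected liver 1, 0.09 in HCC 5 and -0.01 in unaffected liver 3. Arsj, the other neighbour outside the region that passed, did keep it. It was at -0.35, -0.13 and -0.27 in HCC 1, HCC 2 and unaffected liver 1. In HCC 4, HCC 5 and unaffected liver 3 it was at 0.22, 0.24 and 0.08.

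The names with the pattern most like that of the region mean over the 8 tissues were found among the 458 names with at least 3 sites that passed 0.3 in any tissue, by root mean square distance. They were AK204419 on Chr10 (distance 0.15), AK015682 on Chr3 (0.17), Rrbp1 on Chr2 (0.17), Aig1 on Chr10 (0.18) and Bmp7 on Chr2 (0.22). They were chosen for this likeness, so their levels are a description. Each was below its chromosome median in the 3 tissues of mouse 3151 and above it in the 3 of mouse 4033. Rrbp1, a ribosome-binding protein of the endoplasmic reticulum, was at -0.37, -0.34 and -0.37 in HCC 1, HCC 2 and unaffected liver 1 and at 0.21, 0.20 and 0.16 in HCC 4, HCC 5 and unaffected liver 3.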

How the data were processed

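Genomic DNA of 8 tissues was hybridized on 15 two-colour Agilent mouse CGH arrays against sex-mismatched normal liver DNA. Per the file headers, the authors extracted spot intensity values with Feature Extraction 9.1.3.1 and subtracted background, detrended, normalized dyes within each array (the method is given only as a code) and set a substitute value for signals near background, and the deposited log10 ratios are of red over green. The deposited value table holds the same log10 ratios with swap arrays turned. From the processed intensity of each spot log2 (tissue / reference) was computed, swap arrays were turned, spots with outlier flags were left out, spots of a probe were averaged, each array was centred on its autosomal median, and both orientations of a tissue were averaged. No loess was applied, since many sites may truly shift. The region and the gene lists were chosen with earlier results of these data known, and every name in the region is given, while some flank sites are not reported by name here. Gene names are those of the files, and 11 of the 17 sites matched a RefSeq symbol of assembly GRCm38.p6, whose coordinates were not used.

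Groups were compared by two-sided exact permutation tests over tissues and by limma 3.58.1 in R 4.3.3 with Benjamini-Hochberg adjustment at 0.05 over all autosomal sites. Segments came from optimal partitioning (penalty, the squared noise multiplied by 3 and by the natural logarithm of the autosomal site count; at least 5 sites). Both were tested on simulated data with independent noise, in which shifted sites all moved by the same amount. The uneven sites of the region and the sharing of a mouse by tissues were not simulated. Tissues of the same mouse come from the same animal, and their deviations from the group means correlated at 0.17 to 0.40 over sites in 5 pairs of HCC and liver, against -0.33 to 0.11 in 10 pairs of different mice. Alternatives were normexp signals with an offset of 50, single dye orientations, outlier spots kept, other centring, flanks of 5 or 50 sites, medians, sites well above background, mouse or slide as a block, single scan days, and leaving out each tissue. The number of arrays limits the precision. Python 3.11.15 and numpy 2.4.6 were used elsewhere.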

Additional observations from a re-analysis of the deposited data

Results flagged for a closer look

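The step of the region was below 0 in all 3 tissues of mouse 3151 and above 0 in all 3 of mouse 4033, and the means of the mice differed by 0.89 on the log2 scale, mouse 4033 being higher. That difference was not tested, since each side is a single animal and the region was selected on these ratios. Sex, Trp53 genotype and reference DNA differ between these mice as well.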

How the results depend on the processing

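Of the 115 recomputed differences between HCC and unaffected liver in the region (6 measures), 24, with mouse or slide as a block or on a single scan day, have too few splits to reach 0.05 and say nothing of stability. None of the other 91 passed the threshold, the smallest exact permutation p being 0.0536, for the region against the reference with the median of the sites. The differences are small against the spread between mice, and 31 of them changed sign; the cause was not tested. Leaving out each tissue in turn moved the step from -0.16 (without unaffected liver 1) to 0.23 (without unaffected liver 3), the level relative to the Chr3 median from -0.19 to 0.21, and the level against the reference from -0.44 to -0.04. It moved the steps of Larp7 from -0.40 to 0.69, of Neurog2 from -0.076 to 0.043 and of Tifa from -0.11 to 0.19. The median of the sites gave -0.0028 for the step and -0.029 relative to the Chr3 median, where sites well above background on every array gave -0.0046 and forward arrays -0.026. Forward arrays gave -0.14 for Larp7. Swap arrays, without HCC 3, gave 0.057 for Neurog2 and -0.18 for Tifa. With mouse as a replicate block Neurog2 was at 0.017, and this block changed no call of limma's. With slide as a block, which pairs HCC 4 with the liver of another mouse, Neurog2 was at 0.028 and the level against the reference at 0.028. On scan day 1 alone Neurog2 was at 0.060. Leaving out sites 2 and 10, chosen after seeing the data, gave differences of 0.03 for the step, 0.0032 relative to the Chr3 median and -0.25 against the reference. Limma called 0 sites in 37 of 38 alternatives and 1 site, outside the region, against the reference on scan day 2 alone. A segment at least 0.3 from the Chr3 median was found in 5 tissues, and in 6 with a penalty of 2 or with at least 3 sites a segment. In the 5 tissues each such segment held site 2 or site 10. Signals not well above background limit the size of the ratios at sites 2 and 10.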
